A study of Rattus norvegicus with 4 samples.

Results

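The D cyclins, their kinase partners CDK4 and CDK6, and the inhibitors of these kinases were followed in rat Sertoli cells with and without cAMP. Members were every probe set that carries one of the 10 symbols Ccnd1, Ccnd2, Ccnd3, Cdk4, Cdk6, Cdkn1a, Cdkn1b, Cdkn1c, Cdkn2b and Cdkn2c as its single gene symbol in the platform annotation. They came to 15 of the 31099 probe sets on the array and to 10 of the 14217 genes named there. The cAMP group held cells from 20-day-old male Sprague-Dawley rats kept for 72 h in serum-free medium with cAMP, on 2 arrays. The control group held the same kind of cells kept for 72 h with no treatment, also on 2 arrays. The labels name neither the chemical form of the cAMP nor its dose. They call the arrays biological replicates without saying whether they came from separate cell preparations, so p-values measure the spread between these arrays, which may be technical.

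D-type cyclins bind CDK4 or CDK6 in early G1 and start the phosphorylation of the retinoblastoma protein RB, which releases E2F transcription factors and lets a cell enter S phase. Inhibitors of the Cip/Kip family (p21, p27 and p57, encoded by Cdkn1a, Cdkn1b and Cdkn1c) bind cyclin-CDK complexes, while those of the INK4 family (p15 and p18, encoded by Cdkn2b and Cdkn2c) bind CDK4 and CDK6 alone. Sertoli cells divide in fetal and early postnatal life and stop before puberty, and p27 and p21 are known in the mouse to limit their number. Follicle-stimulating hormone, which signals through cAMP, promotes their division in the young animal and their specialised functions later.

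Values are MAS5 signals, one linear intensity for each probe set, with a trimmed mean of 125 on every array. Between 64.2% and 66.3% of probe sets lay above 14.2, the brightest reading among probe sets for Bacillus genes, which is called background here. The Sertoli cell markers Wt1, Clu and Cldn11 lay far above background on every array, with Clu at 6071.5 and 6409.7 on the cAMP arrays and at 6857.9 and 7277.8 on the control arrays, while the listed marker Rhox5 passed 21.0 on no array. Some genes of the Sertoli cell list differed between the groups. By the same limma test as the members, 55.6% of its 9 tested genes passed, against 15.4% of all tested genes. The marker lists were chosen with earlier results of these data known, so the shares given in this paragraph are not read as results. The 3 that rose were Inha (2.04 ± 0.15), Dhh (0.74 ± 0.14) and Shbg (0.69 ± 0.18). The 2 that fell were Gata4 (-0.94 ± 0.12) and Aard (-0.51 ± 0.13), while a second Gata4 probe set gave 0.12 ± 0.24. Of the 9 germ cell markers on the array, the meiotic gene Sycp3 was the brightest. It read 2257.7 and 1753.6 with cAMP and 2339.6 and 2298.0 in controls. Ldhc, Tex101, Uchl1 and Hspa2 also lay far above background on every array. The spermatid genes Prm1 and Tnp1 were at background on all 4 arrays. The germ cell list summed to 4930 and 3560 with cAMP and to 5290 and 4370 in controls, and the groups overlapped. The list of peritubular myoid markers summed to 182 and 221 with cAMP, against 614 and 461 in controls. Of its 5 tested genes 2 were lower (Tagln and Synpo2) and 1 higher (Des), a share of 60% against 15.4% of all tested genes. Most of the gap between the sums was Tagln, a smooth muscle actin-binding protein gene, at 1.3 and 7.4 with cAMP and 344.5 and 264.3 in controls. Without Tagln the sums overlapped, at 180 and 214 with cAMP and 270 and 196 in controls. The sums for endothelial markers were 101 and 94.1 with cAMP and 234 and 162 in controls, and without Kdr, which was called lower, they overlapped at 43.7 and 36 with cAMP and 47.1 and 31.6 in controls. Those for macrophage markers were 217 and 226 with cAMP and 228 and 351 in controls. Without Mrc1 the macrophage sums overlapped, at 91.5 and 119 with cAMP and 95 and 143 in controls. The Leydig cell markers summed to 90.1 and 73.5 with cAMP and to 95 and 90.1 in controls, with Lhcgr, Hsd3b1 and Cyp17a1 at background on all 4 arrays. For fibroblast markers the sums were 66.5 and 66.7 with cAMP, against 98.1 and 98.0 in controls. Without Col1a2 the fibroblast sums stayed apart, at 56.6 and 49.8 with cAMP and 75.1 and 63.4 in controls. These markers were dim, with none above 34.6 on any array. The part of these cells in the results below was not tested. Fewer cells of a type and less RNA per cell cannot be told apart in such bulk samples.

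Of the 10 genes, Cdkn1a alone passed the test. Its transcript, which encodes p21, was 3.92-fold more abundant with cAMP on the brighter of its probe sets and 3.42-fold on the other. The D cyclin genes Ccnd2 and Ccnd3, the kinase gene Cdk4, the other Cip/Kip genes Cdkn1b and Cdkn1c and the INK4 genes Cdkn2b and Cdkn2c had log2 differences between -0.23 and 0.32 and did not pass. Ccnd1 and Cdk6 lay at or near background in both groups. By limma with Benjamini-Hochberg adjustment over all 18625 tested probe sets, and with each gene represented by its brightest probe set, 1 of the 8 tested genes rose and 0 fell, where 8.27% of all tested genes rose and 7.14% fell (15.4% in either direction). At an unadjusted p under the same threshold the counts were again 1 and 0, where 14.9% of all tested genes were higher and 15.2% lower. The median log2 difference was 0.08 over the 8 genes and -0.03 over all 10035 tested genes.

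**Figure D1:**
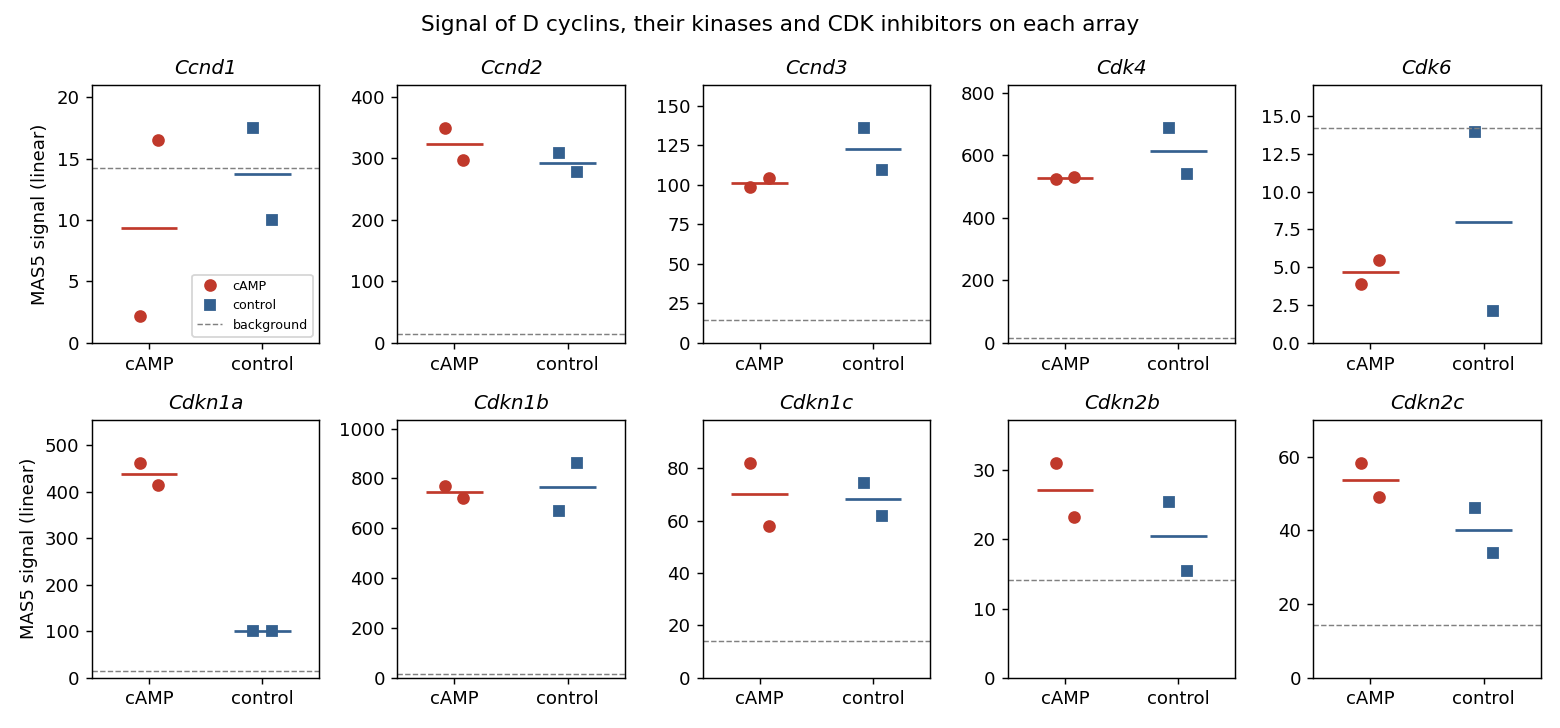
MAS5 signal (linear scale, from 0) of the brightest probe set of each of the 10 genes, with 1 point per array, cAMP arrays left of control arrays, short lines at the mean of each group and a dashed line at the background of 14.2. The cAMP arrays stand at 462.8 and 415.4 for Cdkn1a, above the control arrays at 100.2 and 99.4, while Ccnd1 and Cdk6 lie around or under the dashed line.

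Cdkn1a encodes p21, an inhibitor of cyclin-CDK complexes that is best known as a target of p53. Its brighter probe set read 462.8 and 415.4 on the cAMP arrays, against 100.2 and 99.4 on the control arrays. Both cAMP arrays lay far above both control arrays, and the control arrays were nearly equal. The means were 439 ± 33.5 with cAMP and 99.8 ± 0.566 in controls (SD, n = 2 arrays each), a ratio of 4.40. On the log2(signal + 16) scale used for testing, which understates changes of dim genes, the difference was 1.97 ± 0.16 (standard error; 95% interval 1.61 to 2.34; adjusted p by limma = 0.000385). The dimmer probe set read 105.7 and 123.9 with cAMP, against 31.5 and 14.6 in controls, the last of these barely above background. Its log2 difference was 1.78 ± 0.26 (95% interval 1.18 to 2.37; adjusted p by limma = 0.00468), and its groups did not overlap either. Without cAMP replicate 2 the dimmer probe set no longer passed (1.67 ± 0.36; adjusted p by limma = 0.0554). By size of increase Cdkn1a ranked 136 among the 10035 tested genes. At the level of probe sets, 2 of the 11 tested rose, both of Cdkn1a, and 0 fell, where 7.29% and 6.39% of all tested probe sets did so.

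The 3 genes whose profile over the 4 arrays was nearest to that of Cdkn1a were C1galt1, LOC102554570 and Fdx1, by the root mean square distance between log2 values centred on each gene's mean, out of 10034 other genes. C1galt1, which encodes a galactosyltransferase of mucin-type O-glycans, read 711.7 and 613.5 with cAMP and 163.1 and 156 in controls, at a distance of 0.03. LOC102554570 read 58.9 and 48.8 with cAMP and was at background in controls, at 1.2 and 0.7, so its place near Cdkn1a is set by the 16 added before the logarithm, and its change is not taken as similar in size. Fdx1, the electron carrier of mitochondrial cytochrome P450 enzymes, read 3198.8 and 2922.3 with cAMP and 835.3 and 772.5 in controls.

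RefSeq promoter windows (assembly GRCr8) were at hand for 6 of the 10 genes, namely Ccnd3, Cdk4, Cdkn1a, Cdkn1b, Cdkn2b and Cdkn2c, and the 250 bases before the listed transcript start were searched on both strands. The cAMP response element (CRE), the binding site of CREB and CREM, has the full form TGACGTCA and the half-site TGACG, which the full form contains on both strands. The full CRE occurred in 1.7% of all 27457 windows and the half-site in 19% of them. The E-box CACGTG, a site for proteins of the basic helix-loop-helix family that the series title names, occurred in 5.79%, the GC box GGGCGG in 32.4%, and a half-site of the p53 response element in 6.56%. The windows shown are those of the gene that rose, the gene with the full CRE and the gene with E-boxes. They are Cdkn1a at chr20:7150682-7150931 (plus strand), Cdkn2b at chr5:109134856-109135105 (minus strand) and Cdk4 at chr7:64771203-64771452 (plus strand). Each reads 5′ to 3′ along its gene's strand. Capitals mark the CRE half-site (first) and the p53 half-site (second) in Cdkn1a, the full CRE in Cdkn2b and the E-boxes in Cdk4.
Cdkn1a: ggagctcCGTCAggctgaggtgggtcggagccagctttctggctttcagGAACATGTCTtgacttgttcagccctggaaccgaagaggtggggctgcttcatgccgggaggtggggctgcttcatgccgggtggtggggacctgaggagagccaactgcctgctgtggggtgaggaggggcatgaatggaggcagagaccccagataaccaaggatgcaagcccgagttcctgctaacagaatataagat
Cdkn2b: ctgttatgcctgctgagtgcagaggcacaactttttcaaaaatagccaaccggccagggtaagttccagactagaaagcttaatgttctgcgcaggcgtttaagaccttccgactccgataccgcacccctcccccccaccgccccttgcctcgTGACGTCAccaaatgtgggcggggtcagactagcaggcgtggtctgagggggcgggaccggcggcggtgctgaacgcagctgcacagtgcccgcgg
Cdk4: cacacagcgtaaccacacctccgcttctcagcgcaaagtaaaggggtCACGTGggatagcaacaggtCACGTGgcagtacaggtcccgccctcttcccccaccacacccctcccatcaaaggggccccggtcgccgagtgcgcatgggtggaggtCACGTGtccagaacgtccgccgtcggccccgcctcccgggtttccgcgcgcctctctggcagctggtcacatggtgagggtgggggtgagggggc

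The Cdkn1a window held 1 CRE half-site, on the opposite strand at 243 to 239 bases before the start, and 1 p53 half-site at 201 to 192 bases before it, and no full CRE, E-box or GC box of these letters. The Cdkn2b window held the full CRE at 96 to 89 bases before the start, together with 3 GC boxes, and the Cdk4 window held 3 E-boxes and 1 GC box. CRE half-sites were also found in the windows of Ccnd3 and Cdkn1b, so 4 of the 6 members had one, and a p53 half-site was also found in that of Cdkn2c. GC boxes were found in 5 of the 6 windows, all but that of Cdkn1a. Bases outside the windows were not searched, so sites elsewhere near Cdkn1a are not counted here. These matches describe the letters in the windows, and their positions count from the listed transcript start. The RefSeq gene Cdkn1a begins at 7150820 and Cdkn2b, on the minus strand, at 109134906. Both points lie inside the windows, so the listed start is not the outermost one of either gene. Transcripts of Cdkn1a can start elsewhere.

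The remaining Cip/Kip genes did not pass. Cdkn1b encodes p27, the inhibitor that accumulates in resting cells. Its brighter probe set read 767.9 and 720.3 with cAMP, against 668.9 and 863.0 in controls, so that the cAMP arrays lay between the control arrays. The log2 difference was -0.03 ± 0.16 (95% interval -0.40 to 0.34), and an increase like that of Cdkn1a lies outside this interval. A dimmer probe set of Cdkn1b read 30.8 and 14.0 with cAMP, against 33.1 and 36.5 in controls (-0.44 ± 0.26; adjusted p by limma = 0.326). Cdkn1c, an imprinted gene, encodes p57. It read 82.2 and 58.0 with cAMP, against 74.5 and 61.8 in controls, and both control arrays fell within the range of the cAMP arrays (0.02 ± 0.22; 95% interval -0.49 to 0.54).

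The INK4 genes were dim. Cdkn2b, whose protein p15 mediates arrest by TGF-beta in epithelial cells, read 31.1 and 23.2 with cAMP, against 25.4 and 15.5 in controls, and the groups overlapped (0.25 ± 0.24; 95% interval -0.31 to 0.81). Whether the full CRE in its window acts in these cells was not tested. Cdkn2c, which encodes p18, read 58.4 and 49.2 with cAMP, against 46.2 and 33.9 in controls. The cAMP arrays lay above the control arrays, but the test did not separate the groups (0.32 ± 0.21; 95% interval -0.18 to 0.82; adjusted p by limma = 0.378, the lowest among the 7 tested genes other than Cdkn1a). The other probe set of Cdkn2c, of a kind that can cross-hybridise with other transcripts, read 24.3 and 24.4 with cAMP, against 30.6 and 21.2 in controls, and its log2 difference had the opposite sign (-0.05 ± 0.22). Of the INK4 genes outside the member list, named here after their values were seen, Cdkn2d (p19) read 238.7 and 229.9 with cAMP, against 182.4 and 144.3 in controls (0.49 ± 0.17; adjusted p by limma = 0.113). Cdkn2a, which encodes p16 and ARF, was too dim for the filter and was not tested, at 5.9 and 12.7 with cAMP and 26.8 and 23.8 in controls.

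Among the D cyclins, cyclin D2 (Ccnd2) is the form linked to follicle-stimulating hormone in the gonads of the mouse. It read 349.4 and 296.7 with cAMP, against 308.1 and 277.6 in controls, and the groups overlapped (0.13 ± 0.16; 95% interval -0.24 to 0.50). Cyclin D3 (Ccnd3), found in many differentiated cells, read 98.4 and 104.2 with cAMP, against 135.9 and 109.1 in controls. Both cAMP arrays lay below the control arrays, but by little against the gap between the controls (-0.23 ± 0.18; adjusted p by limma = 0.463). Cyclin D1 (Ccnd1), the usual target of growth factor signals, had 3 probe sets, none bright enough to be tested. The brightest read 2.2 and 16.5 with cAMP, against 17.5 and 10.0 in controls, and no array exceeded 17.5 on any of the 3. No fold is given for Ccnd1, as both groups lie around background.

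The kinase gene Cdk4 read 525.1 and 529.5 with cAMP, against 687.4 and 541.6 in controls. The cAMP arrays were nearly equal and lay just under the lower control array (-0.21 ± 0.16; 95% interval -0.57 to 0.16; adjusted p by limma = 0.445). Whether the 3 E-boxes in its window act in these cells was not tested. Cdk6, the other partner of the D cyclins, read 3.9 and 5.5 with cAMP and 13.9 and 2.1 in controls, at or below background on all 4 arrays, and was not tested. Over all members, 6 of the 11 tested probe sets had groups that did not overlap, where 58.2% of all tested probe sets did so.

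**Figure D2:**
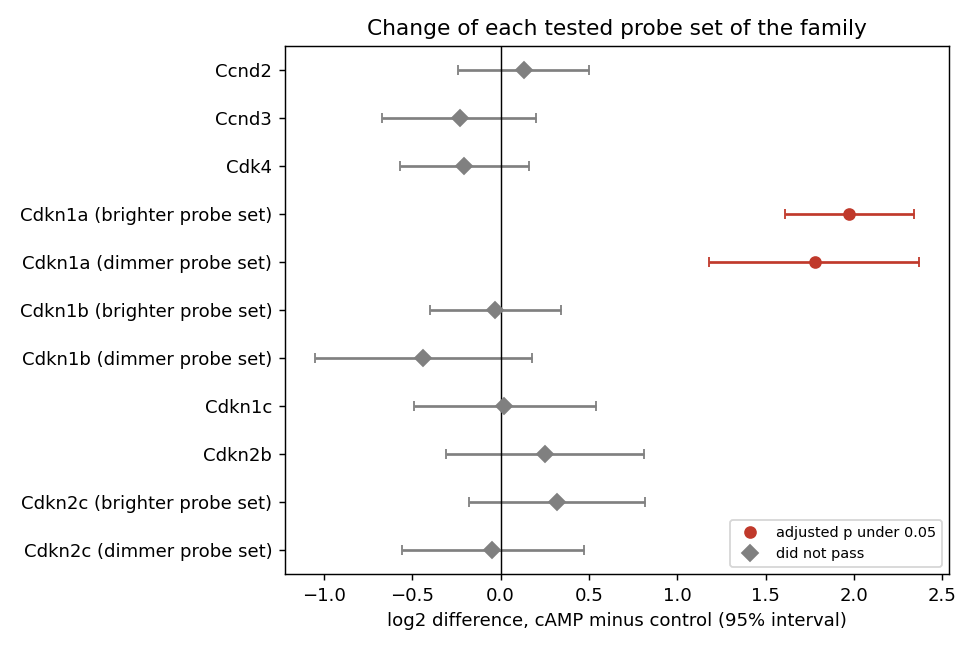
Log2 difference, cAMP minus control, of each of the 11 tested probe sets on the log2(signal + 16) scale, with its 95% interval from limma. The intervals of both Cdkn1a probe sets, 1.61 to 2.34 and 1.18 to 2.37, lie above 0, and those of the other 9 probe sets include 0.

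The log2 difference of Cdkn1a exceeded those of the other 7 tested genes by 1.65 (Cdkn2c) to 2.21 (Ccnd3). The lower bound of its interval, 1.61, lay above the highest upper bound among the 7 genes, 0.82, which corresponds to 1.77-fold. The lowest lower bound among them was -0.67, or 0.63-fold. These bounds are those of the brightest probe sets. The interval of the dimmer Cdkn1b probe set reached lower, from -1.05 to 0.18. The differences between genes were not tested. With 2 arrays per group an exact two-sided permutation test of a single value cannot give a p below 0.333.

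**Figure D3:**
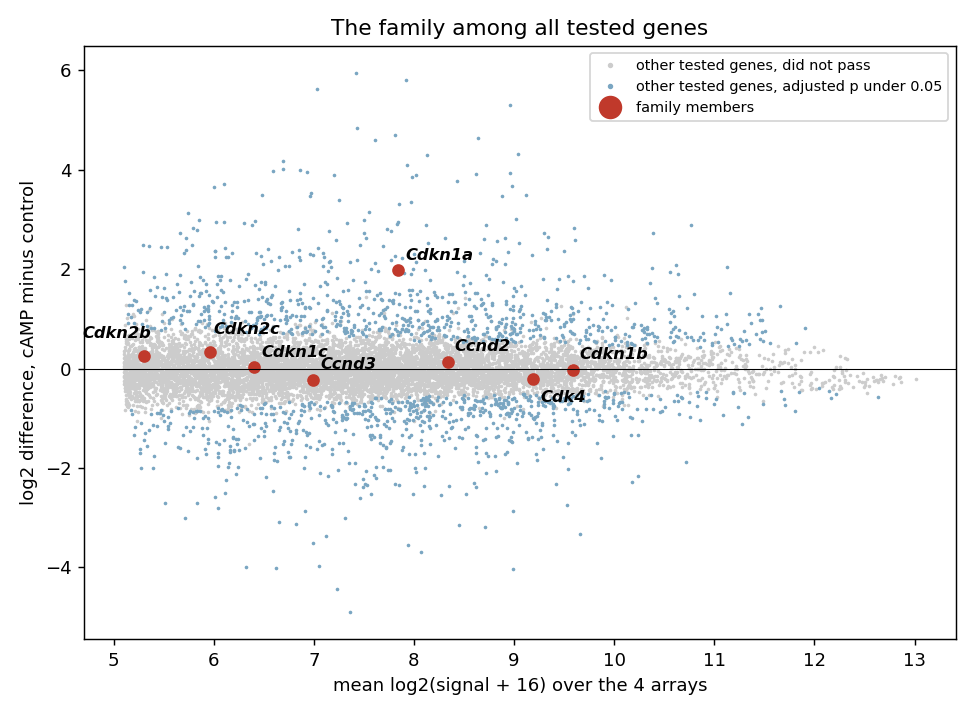
Log2 difference, cAMP minus control, of each tested gene against its mean log2(signal + 16) over the 4 arrays, with genes past the threshold in blue and the 8 tested members as large red points. Cdkn1a stands at 1.97 among the genes that rose, and the other members lie between -0.23 and 0.32, within the grey band.

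Genes around the D cyclins and CDKs were read from 5 lists. Of 21 tested genes of the step that the D cyclins start (the RB and E2F families, cyclins E and A and their helpers), 2 fell and 0 rose, and at an unadjusted p under the threshold 3 were lower and 1 higher. The share called, 9.52%, lay below the 15.4% of all tested genes. Cks1b, whose small protein helps the SCF ligase with Skp2 to destroy p27, read 356.4 and 288.3 with cAMP, against 592.7 and 665.4 in controls (-0.94 ± 0.16; adjusted p by limma = 0.00922). Another probe set of Cks1b gave -0.07 ± 0.18. Rbl2, which encodes the pocket protein p130 that holds E2F target genes off in resting cells, read 328.2 and 348.5 with cAMP, against 531.6 and 842.4 in controls (-0.95 ± 0.22; adjusted p by limma = 0.0286). For both genes the cAMP arrays lay below both control arrays, and the control arrays differed widely for Rbl2. With cAMP replicates 1 and 2 left out in turn, the log2 differences were -1.08 and -0.79 for Cks1b and -0.91 and -0.99 for Rbl2. Both calls were lost in these fits, which leave 1 cAMP array. That of Cks1b was also lost when its probe sets were averaged (-0.51 ± 0.16; adjusted p by limma = 0.0558), and that of Rbl2 when dim probe sets were kept in and without the eBayes trend. Rb1 itself, the third of the genes lower at an unadjusted p, read 128.6 and 118.5 with cAMP, against 175.8 and 241.7 in controls (-0.67 ± 0.20; adjusted p by limma = 0.0652). Rb1, with a single probe set, passed when each gene was fitted as the mean of its probe sets (adjusted p by limma = 0.0324). Its log2 difference stayed at -0.67 in that fit, where fewer features are tested.

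Of 27 tested markers of S phase and mitosis, 0 passed the test by limma in either direction, and at an unadjusted p under the threshold 3 were lower and 0 higher, no larger a share than the 15.2% and 14.9% of all tested genes. Their median log2 difference was -0.09, with a range from -0.70 to 0.29, and 7 of the 27 were above 0, where 47.1% of all tested genes were. The 3 were the mitotic kinase gene Cdk1, at 51.4 and 31.9 with cAMP and 76.2 and 76.7 in controls (-0.70 ± 0.23), its cyclin gene Ccnb2 (-0.46 ± 0.18) and Aurkb, a kinase of chromosome segregation (-0.55 ± 0.22). Cdk1, with a single probe set, passed when each gene was fitted as the mean of its probe sets (adjusted p by limma = 0.043). Its log2 difference stayed at -0.70 in that fit, where fewer features are tested. The proliferation marker Mki67 read 102.9 and 81.7 with cAMP, against 102.3 and 131.7 in controls, and overlapped between groups. Germ cells also transcribe such genes, and what part of these signals came from them was not tested.

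Among 22 tested further cyclins and CDKs, 2 rose and 0 fell, a share of 9.09% against the 15.4% of all tested genes. Ccng2, an unconventional cyclin linked to cell cycle arrest, read 1200.8 and 1226.6 with cAMP, against 717.7 and 636.2 in controls (0.83 ± 0.13; adjusted p by limma = 0.00632). Cdk14, a kinase that works with cyclin Y in Wnt signalling, read 295.6 and 347.8 with cAMP, against 167.7 and 141.2 in controls (0.99 ± 0.17; adjusted p by limma = 0.00985). The groups stood clear of each other for both genes. With cAMP replicates 1 and 2 left out in turn, the log2 differences were 0.85 and 0.81 for Ccng2 and 1.10 and 0.87 for Cdk14. Both calls were lost in these fits, which leave 1 cAMP array.

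Since Cdkn1a is a p53 target, 13 other p53 target genes were read as well: 1 rose, 1 fell and 11 did not pass, with a median log2 difference of 0.08. The share called, 15.4%, equalled that of all tested genes, and at an unadjusted p 2 were higher and 1 lower. Sesn2, a stress-induced brake on mTORC1, read 240.4 and 236.7 with cAMP, against 122.4 and 86.6 in controls (1.09 ± 0.19; adjusted p by limma = 0.011), and a dimmer probe set gave 0.13 ± 0.21. Ppm1d, which encodes a phosphatase that dampens p53 signalling, read 171.4 and 141.6 with cAMP, against 252.5 and 255.1 in controls (-0.65 ± 0.17; adjusted p by limma = 0.0429). Both calls were lost when either cAMP array was left out. That of Ppm1d was also lost without control replicate 2, when dim probe sets were kept in, and without the eBayes trend. Mdm2, the p53 ligase gene that p53 itself induces, read 403.9 and 402.3 with cAMP, against 464.2 and 474.7 in controls (-0.21 ± 0.13), and Gadd45a read 759.7 and 871.9 with cAMP, against 810.9 and 699.7 in controls (0.11 ± 0.14). Plk2, a stress-induced kinase gene, read 204.3 and 182.9 with cAMP, against 140.2 and 65.3 in controls (0.89 ± 0.30; adjusted p by limma = 0.0968), with the groups apart. None of these 3 passed, and they were named after their values were seen.

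Of 37 tested regulators of the family, 8 rose and 3 fell, a share of 29.7% against the 15.4% of all tested genes. Like the other lists, this list was chosen with earlier results of these data known, so its higher share is not read as a result. Some of these regulators act on the Cdkn1a gene, and others on p21 protein or on other members. Their part in the increase of Cdkn1a was not tested. Klf4, a zinc finger factor that activates Cdkn1a, read 652.4 and 635.1 with cAMP, against 248.5 and 221.3 in controls (1.40 ± 0.14; adjusted p by limma = 0.00109). Cul4a, the scaffold of a ubiquitin ligase that destroys p21 protein, read 902.3 and 739.5 with cAMP, against 343.4 and 318.5 in controls (1.26 ± 0.15; adjusted p by limma = 0.0022). Crem, a CREB relative with cAMP-induced repressor forms, read 656.4 and 601.4 with cAMP, against 242.1 and 140.3 in controls (1.68 ± 0.24; adjusted p by limma = 0.00429), and its other 4 tested probe sets differed in the same direction. Junb (2.49 ± 0.21) and Fos (1.86 ± 0.16), parts of the AP-1 factor that acts on D cyclin genes, rose too, as did Id4 (3.49 ± 0.14), whose protein keeps basic helix-loop-helix factors from binding DNA.

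The 3 regulators that fell were Smad4, Foxo3 and Tcf4. Smad4, through which TGF-beta raises Cdkn2b and Cdkn1a in epithelial cells, read 509.2 and 490.6 with cAMP, against 821.7 and 806.4 in controls (-0.69 ± 0.13; adjusted p by limma = 0.0133), but another probe set of it gave 0.17 ± 0.23. Foxo3, an activator of Cdkn1b, read 1199.9 and 1049.7 with cAMP, against 1640.1 and 1802.2 in controls (-0.61 ± 0.13; adjusted p by limma = 0.0223). Tcf4, a basic helix-loop-helix E-protein, read 296.4 and 388.5 with cAMP, against 613.5 and 963.7 in controls (-1.14 ± 0.23; adjusted p by limma = 0.0192). With cAMP replicates 1 and 2 left out in turn, the log2 differences were -0.71 and -0.66 for Smad4, -0.70 and -0.51 for Foxo3, and -0.96 and -1.33 for Tcf4. All 3 calls were lost in these fits, which leave 1 cAMP array. Those of Foxo3 and Tcf4 were also lost when dim probe sets were kept in, that of Foxo3 without the eBayes trend, and that of Smad4 when its probe sets were averaged (-0.26 ± 0.16; adjusted p by limma = 0.315), while 6 regulators fell when control replicate 1 was left out and 5 when control replicate 2 was. Of the genes that rose, Klf4, Cul4a, Junb, Fos and Id4 passed with any 1 array left out, and Crem was lost without cAMP replicate 1. Mycl (0.82 ± 0.17) was lost without either cAMP array, though its log2 difference was 0.86 without replicate 1 and 0.77 without replicate 2. Fbxo31 (0.80 ± 0.19), an F-box gene, was lost without either cAMP array, without control replicate 2, when dim probe sets were kept in, and without the eBayes trend. Mycl and Fbxo31 were named after their values were seen. Myc, a repressor of Cdkn1a and Cdkn2b named after its values were seen, read 65.9 and 89.0 with cAMP, against 166.0 and 48.7 in controls, which placed both cAMP arrays between the control arrays (-0.23 ± 0.44).

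**Figure D4:**
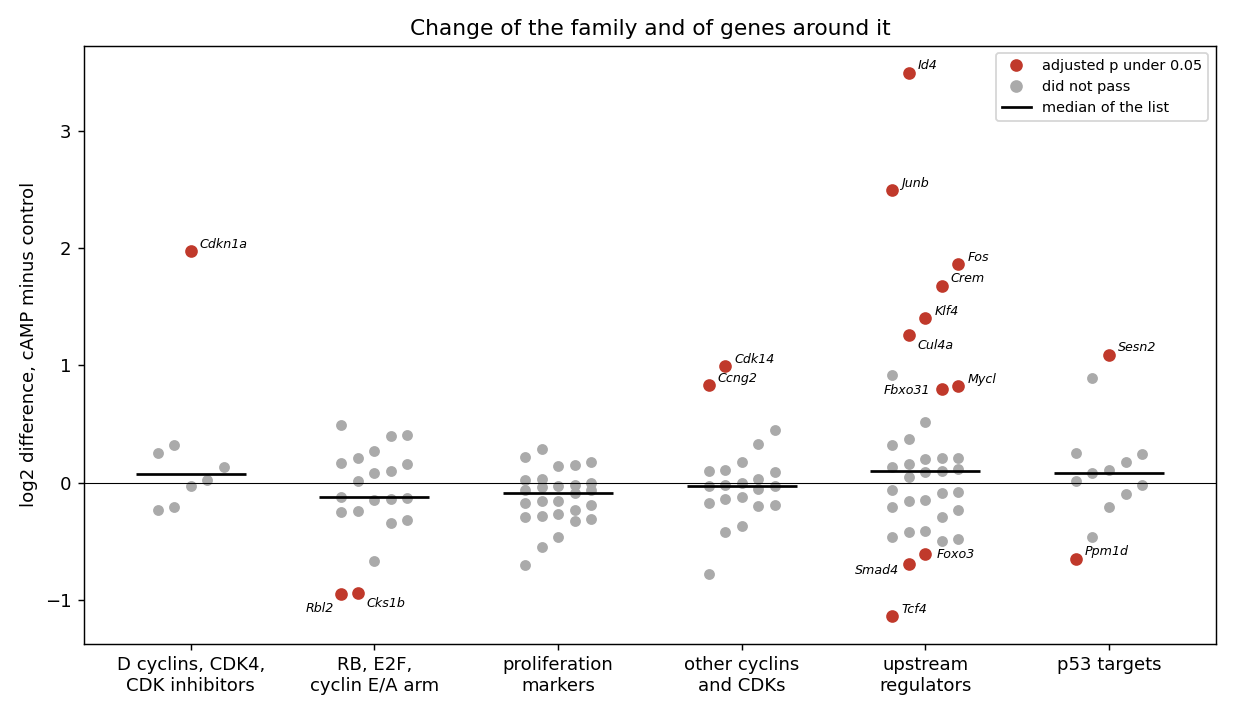
Log2 difference, cAMP minus control, of each tested gene in the family and in 5 lists around it, with 1 point per gene, genes past the threshold in red and named, and a black line at the median of each list. The medians lie between -0.12 and 0.10. Cdkn1a stands alone in the family, and no marker of S phase or mitosis is red. Most named points belong to the upstream regulators, which, like the other lists, were chosen with earlier results of these data known.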

How the data were processed

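Total RNA of Sertoli cell cultures was labelled and hybridised to 4 one-colour Affymetrix rat arrays. The deposited values are probe set intensities, which the submitters' processing notes credit to MAS5 in GCOS, run by the authors, with no version or setting stated. The mean signal trimmed by 2% at each end was 125 on every array. Of 31099 probe sets, 20832 carry 1 gene symbol in the platform annotation, 436 several and 9831 none. Symbols were updated by gene ID through a RefSeq table (GRCr8), which matched 20764 of them and all 10 members.

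On log2(signal + 16), probe sets other than the 57 controls were kept if their mean over the arrays reached the 40th percentile (log2 5.1, a signal of about 18.3), which left 18625. The fit was made with limma 3.58.1 in R 4.3.3 (eBayes with trend), two-sided, over all probe sets, and an adjusted p under 0.05 counted as passing. The script was tested on simulated data. Background is the highest of 27 Bacillus control probe sets. A gene stands as its brightest probe set. The number of arrays limits the precision. Alternatives were pseudocounts of 64 and 1, no filter, quantile normalization, no trend, the replicate number as a block, gene means and leaving out each array. Members and lists were chosen with earlier results of these data known. All members are named; from each list at most 6 genes per direction by p, plus those behind any count up to 5. Other names are said to be chosen after their values were seen, except cell type markers, which follow their list. Second probe sets are given where they bear on a call.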

Additional observations from a re-analysis of the deposited data

How the results depend on the processing

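Cdkn1a rose under all 11 alternatives, with log2 differences from 1.62 to 2.12 and adjusted p by limma from 0.000113 to 0.013, and with any 1 array left out it ranged from 1.90 to 2.05. The count of member genes stayed at 1 higher and 0 lower under each of the 11. The other members gave 77 values under these alternatives, none past the threshold, with a lowest adjusted p of 0.0951. With single arrays left out, Cdkn1b ranged from -0.21 to 0.15 and Cdkn1c from -0.18 to 0.23, so their sign depends on the arrays used; it was opposite for Cdkn1b without cAMP replicate 2 (0.01) and without control replicate 2 (0.15), and for Cdkn1c without cAMP replicate 1 (-0.18) and without control replicate 2 (-0.09).

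Counts over the array depended on the filter and the arrays. Of all probe sets 1358 were higher and 1191 lower; without the filter, with more features tested, 873 and 725; with 1 array left out, 408 to 2419 and 305 to 2371. For the RB, E2F and cyclin E and A arm, 1 gene was lower without the filter and 1 without the eBayes trend, and single arrays left out gave 0 to 2 higher and 0 to 3 lower. For the other cyclins and CDKs single arrays gave 0 to 3 higher and 0 to 1 lower. For p53 targets 0 were lower without the filter and 0 without the trend, and single arrays gave 0 to 2 higher and 0 to 1 lower. For the upstream regulators 1 was lower without the filter, and single arrays gave 5 to 10 higher and 0 to 6 lower. The fit on gene means, with fewer features tested, gave 1 lower marker of S phase and mitosis. The cause of these shifts was not tested beyond the changed number of arrays or features.

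Same-numbered cAMP and control arrays deviated together with r = 0.163, and with only 2 pairs the numbers are not taken to pair the samples. With the replicate block Cdkn1a had a log2 difference of 1.97 ± 0.17, 1 of the other cyclins and CDKs was lower and 2 p53 targets were higher.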
